A study of Mus musculus with 12 samples.

Results

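The question addressed was whether loss of Smad7 changed the transcriptional response of cardiac fibroblasts to TGF-β1. For each gene, the log2 fold change with TGF-β1 in control cells was subtracted from the log2 fold change with TGF-β1 in Smad7-KO cells. This difference of responses was defined over all 35275 genes of the deposited count table, with no gene chosen for its values, and 15150 of them had enough reads to be tested. A difference above 0 means that the fold change was more positive without Smad7. The words without Smad7 stand for Smad7-KO cells, where Smad7 transcript was lower but still read. A gene was described as responding more or less when both estimates had the same sign, and oppositely when they did not.

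RNA-Seq was performed on polyA RNA of cardiac fibroblasts from 12-week-old Smad7 floxed mice of the C57BL/6 strain, used at passage 2. Control cells were called wild type in the sample titles, which is read here as the intact floxed gene. They received a GFP adenovirus (an empty virus in the study's methods), whereas Smad7-KO cells received a Cre-expressing adenovirus. Each virus was given at 100 MOI for 48 hours. Cells of both kinds were left without stimulation or received TGF-β1 at 10 ng/ml, for 2 hours by one label and 4 hours by another. Each of the 4 groups had 3 libraries, 12 in all, with 19056916 to 25371321 counts. Read this way, all groups carried the floxed allele and an adenovirus. Effects of Cre itself cannot be told apart from those of Smad7 loss. No source used here says that the 3 libraries of a group came from separate animals. The p-values measure the spread between libraries, estimated for each gene over all 12 libraries together.

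TGF-β1 binds a pair of receptor kinases that phosphorylate Smad2 and Smad3, which enter the nucleus with Smad4 and switch on target genes. Smad7 is an inhibitory Smad, itself induced by TGF-β, that restrains the receptors and the receptor-activated Smads. Id1, Id2 and Id3, inhibitors of basic helix-loop-helix transcription factors, and Smad6, the other inhibitory Smad, are well-known targets of the related BMP branch.

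The summed levels of fibroblast markers were high in every library, but so were those of macrophage markers. The summed level of the 14 fibroblast markers was 16208 to 23949 CPM (counts per 1000000 reads, scaled by TMM) in unstimulated control libraries and 16447 to 20932 CPM in the other 9. That of the 19 macrophage markers found was 18522 to 29784 CPM in unstimulated control, 18842 to 21935 in TGF-β1 control, 26567 to 29060 in unstimulated Smad7-KO and 26388 to 29633 in TGF-β1 Smad7-KO libraries. The 20 endothelial markers summed to 714 to 822 CPM in libraries of control cells, against 249 to 313 CPM without Smad7. These sums follow their most highly read members, and not every marker was abundant. In unstimulated control libraries, Lyz2 had a median of 12555 CPM and Lyve1 of 0.31 CPM among macrophage markers. Among fibroblast markers, Col3a1 was at 5474 and Lum at 0.84 CPM. In bulk samples, fewer cells of a type and less RNA per cell cannot be told apart. Unstimulated control libraries 2 and 3 stood apart from library 1 of their group. The biological coefficient of variation was 0.335 in that group and 0.053 to 0.137 in the other groups. All tests shared the estimate of the spread, so p-values of a cell group do not follow the spread of its own libraries. The counts of responders in control and Smad7-KO cells rest on that shared estimate. In library 2, shorter genes were read higher and longer genes lower. The part of library 2 is given below for some results only, and a result without such a value may also depend on it.

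Most genes that responded to TGF-β1 in one cell group moved the same way in the other. In control cells 1268 genes (8.37% of those tested) responded to TGF-β1, of which 763 rose (5.04%) and 505 fell (3.33%). The threshold was an adjusted p of 0.05, by Benjamini-Hochberg over all tested genes, in the quasi-likelihood test of edgeR. In Smad7-KO cells 1550 genes responded (10.2%), of which 807 rose (5.33%) and 743 fell (4.9%). In total 1000 genes moved in the same direction in both, which was 78.9% of the control responders and 64.5% of the Smad7-KO responders. Only Adam33 passed both tests in opposite directions. Being called in a single cell group is not a test of the difference. Of 267 genes called only in control cells and 549 called only in Smad7-KO cells, 0 passed that test. An unadjusted p under 0.05 for the difference was reached by 39 and 96 of them, against 2.59% of all tested genes. These genes were chosen by values that enter the difference, so neither count shows how many responses differed.

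In the fit on all 12 libraries, genes that responded in control cells moved by a near-equal median amount without Smad7. The median response of the 1268 control responders, signed by their direction in control cells, was 0.89 on the log2 scale in control and 0.86 in Smad7-KO cells (quartiles 0.55 and 1.34), and 99.2% kept their sign. The higher and the lower genes did not separate, with medians of 0.92 and 0.89 for the 763 that rose and 0.83 and 0.82 for the 505 that fell. Read the other way, the 1550 Smad7-KO responders had a median of 0.89 in Smad7-KO and 0.69 in control cells, where the 743 that fell had 0.85 and 0.61. A list read where it was chosen is too large, so the first value of each pair is biased upward. Without unstimulated control library 3, 3449 genes passed in control cells, and their median in Smad7-KO cells was 0.32. Given this bias and this change, near-equal medians do not show equal responses.

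**Figure D1:**
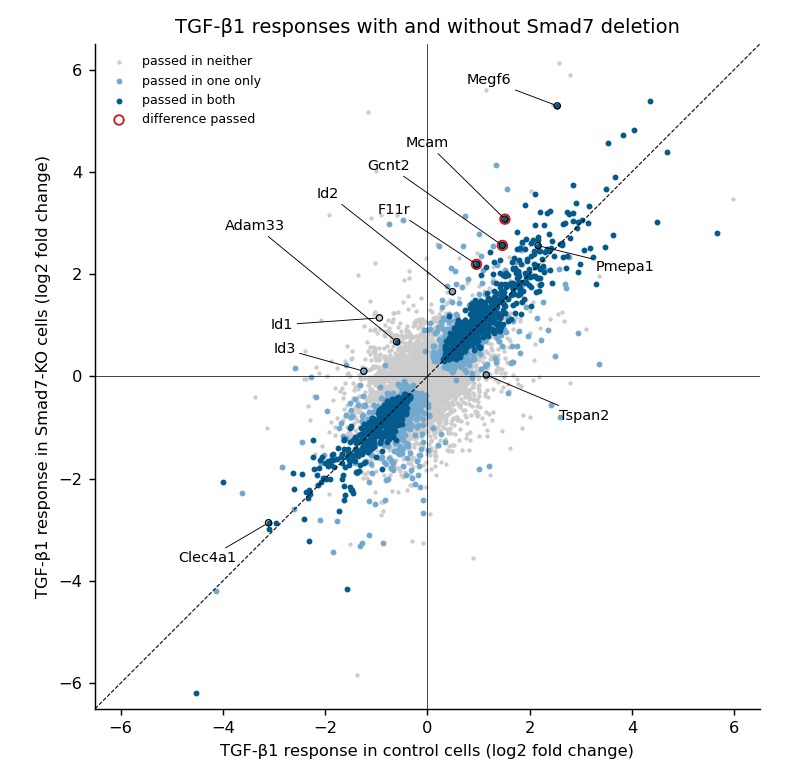
TGF-β1 response in control cells (x axis) against that in Smad7-KO cells (y axis), both as log2 fold changes, for the 15150 tested genes. Colors mark genes that passed the test in both, one or neither cell group, red rings the 3 genes whose difference passed, and the dashed line equal responses. The 2 responses had opposite signs in 4851 of the tested genes and in 1 of the 1001 that passed in both. Outside the axes lie 4 genes.

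Across the 15150 genes the 2 responses, which share no library, correlated with Pearson's r of 0.66 and Spearman's rho of 0.55, as a description over genes that are not independent. The correlation was higher for well-read genes. Pearson's r was 0.56 over 2947 genes with an average log2 CPM under 1, 0.72 over 3944 genes from 1 to 4, 0.81 over 6711 genes from 4 to 7 and 0.83 over 1548 genes of 7 or more. The spread of the difference fell alongside, from an SD of 0.87 to 0.23, as did its median SE, from 0.71 to 0.20.

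A missed threshold does not show that responses were alike, so intervals were examined. Of the 1001 genes that responded in both cell groups, 801 (80.0%) had a 95% interval of the difference within 2-fold in either direction. Of the control responders 954 (75.2%) were so bounded, with a median interval of ± 0.46, and of all tested genes 59.6%.

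A few TGF-β1 targets are given as examples of similar responses. They were chosen for that similarity, which supports nothing about the other targets. Tgfbi, a secreted matrix protein, rose from 52.3 ± 3.6 to 221 ± 10.9 CPM (SD, n = 3) in control cells and from 66.1 ± 4.11 to 302 ± 14.1 CPM in Smad7-KO cells. Its log2 responses were 2.08 and 2.19, and the difference was 0.11 with a 95% interval of -0.18 to 0.40. Hbegf, an ErbB ligand, rose from a mean of 27.7 to 119 CPM in control cells and from 11.6 to 51.4 CPM without Smad7 (difference 0.05, interval -0.44 to 0.54). Skil, a Smad corepressor, had responses of 1.65 and 1.75 (0.11, interval -0.41 to 0.62). All 3 genes rose in both cell groups by edgeR's quasi-likelihood test, with adjusted p values from 1.23e-07 to 9.47e-05. For Il11, a fibroblast cytokine read at low levels, the responses of 2.64 and 2.56 left a wide interval of -1.67 to 1.51.

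The well-read genes (average log2 CPM 1 or higher) with the strongest responses in one cell group also moved in the other. In control cells, Htr2b, a serotonin receptor, rose by 3.14 on the log2 scale and by 3.00 in Smad7-KO cells, and Rapgef4, a cAMP-activated exchange factor for Rap GTPases, by 3.03 and 3.05. Trem1, a myeloid receptor, rose by 2.95 in control and 2.05 in Smad7-KO cells (difference -0.90, interval -1.82 to 0.03). Among the largest decreases were Clec4a1 and Spic in both cell groups and Slc40a1 in Smad7-KO cells. Clec4a1, a C-type lectin receptor, had responses of -3.11 and -2.86, and Spic, a transcription factor of iron-recycling macrophages, of -2.96 and -2.86. Slc40a1, the iron exporter ferroportin, was at 304, 248 and 375 CPM in unstimulated control and 60.4, 58.1 and 55.1 CPM in TGF-β1 control libraries. In Smad7-KO cells it was at 649, 648 and 585 CPM without and 103, 82.3 and 87.0 CPM with TGF-β1. Stimulated and unstimulated libraries did not overlap in either cell group, as for 19.8% of tested genes in control and 39.0% in Smad7-KO cells. The difference of its responses was -0.37 with an interval of -0.82 to 0.07. These 3 genes are known from macrophages. Of the 18 tested macrophage markers, 1 rose and 2 fell in each cell group. Among all tested genes, 5.04% rose and 3.33% fell in control cells, and 5.33% and 4.9% in Smad7-KO cells. Cx3cr1, a chemokine receptor, rose (responses 1.65 and 2.23), and Cd14 (-1.34 and -1.14) and Cd163 (-2.38 and -2.27) fell. The summed marker levels of unstimulated and stimulated Smad7-KO libraries, given above, overlapped. The part of macrophage content in these responses was not tested.

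The difference of responses passed the threshold for 3 genes (0.0198% of those tested), Mcam, F11r and Gcnt2, all of which rose by a larger fold without Smad7. An unadjusted p under 0.05 was reached by 392 genes, or 2.59%, where 5% is the nominal share. Their promoters in RefSeq (GRCm38.p6) are shown because these are the genes that the test singled out. Each runs from 250 bases before to 50 bases after the annotated start, on the + strand, and capitals mark matches to the letters TGAGTCA (an AP-1 site) or GGCGCC (a GC-rich Smad site).
Mcam, chr9:44134408-44134707: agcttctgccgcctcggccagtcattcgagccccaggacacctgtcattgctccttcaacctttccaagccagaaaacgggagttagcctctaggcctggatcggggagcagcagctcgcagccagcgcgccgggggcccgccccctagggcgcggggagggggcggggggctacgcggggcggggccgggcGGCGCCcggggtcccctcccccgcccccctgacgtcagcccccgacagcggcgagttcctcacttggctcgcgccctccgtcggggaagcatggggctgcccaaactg
F11r, chr1:171437311-171437610: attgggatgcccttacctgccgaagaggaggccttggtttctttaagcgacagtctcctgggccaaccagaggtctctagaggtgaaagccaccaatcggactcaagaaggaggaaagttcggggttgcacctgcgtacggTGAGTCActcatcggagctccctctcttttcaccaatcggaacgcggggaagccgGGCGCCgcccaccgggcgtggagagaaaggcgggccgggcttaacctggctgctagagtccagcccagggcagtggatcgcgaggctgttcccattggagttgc
Gcnt2, chr13:40859518-40859817: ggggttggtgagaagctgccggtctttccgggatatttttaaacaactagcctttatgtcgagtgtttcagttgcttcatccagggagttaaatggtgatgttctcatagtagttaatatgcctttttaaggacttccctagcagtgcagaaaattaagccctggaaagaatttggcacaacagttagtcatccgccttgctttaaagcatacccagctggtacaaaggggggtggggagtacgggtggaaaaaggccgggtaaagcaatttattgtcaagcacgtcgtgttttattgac

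On both strands, GGCGCC was found in 11.9%, TGAGTCA in 5.2% and CAGAC, the Smad half-site, in 49.6% of 32817 mouse promoters of this length. GGCGCC begins at -58 in Mcam and -54 in F11r, TGAGTCA at -109 in F11r, and CAGAC was in none of the windows. The Gcnt2 window is 1 of 3 annotated starts, the one at the gene start of the deposited table. Mcam and F11r have 1 annotated start each, at 189 and 26 bases from their gene starts in that table. A match describes letters only, and binding was not measured.

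Mcam encodes CD146, an adhesion molecule of vascular and mural cells. It was at 41.4, 32.1 and 42.1 CPM in unstimulated control and 116, 106 and 109 CPM in TGF-β1 control libraries. In Smad7-KO cells it was at 8.97, 9.19 and 8.16 CPM without and 74.9, 70.9 and 75.9 CPM with TGF-β1. The 4 groups did not overlap, and both Smad7-KO groups lay below their control counterparts. The log2 response was 1.52 in control cells and 3.07 without Smad7, a difference of 1.56 (SE 0.16, interval 1.20 to 1.91, adjusted p = 0.0115, edgeR's quasi-likelihood test). On the linear scale, the rise in mean CPM was 71.7 ± 4.53 (SE) in control and 65.1 ± 1.54 in Smad7-KO cells. The larger fold thus went with an unstimulated level at 22.8% of control.

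F11r encodes the junctional adhesion molecule JAM-A of tight junctions. It was at 34.2, 30.9 and 36.6 CPM in unstimulated control and 61.4, 70.6 and 66.0 CPM in TGF-β1 control libraries. Without Smad7 it was at 11.9, 14.7 and 13.4 CPM unstimulated and 62.3, 58.7 and 61.5 CPM with TGF-β1. Unstimulated Smad7-KO libraries lay below all others, while the stimulated groups overlapped. The responses were 0.96 and 2.19, with a difference of 1.23 (SE 0.15, interval 0.90 to 1.56, adjusted p = 0.0317, edgeR's quasi-likelihood test), and the linear rise was 32.1 ± 3.13 CPM with and 47.5 ± 1.35 CPM without Smad7.

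Gcnt2 encodes the glycosyltransferase that builds branched I-antigen chains. It was at 13.3, 14.7 and 15.9 CPM in unstimulated control and 41.6, 39.3 and 40.2 CPM in TGF-β1 control libraries. In Smad7-KO cells it was at 11.6, 9.96 and 10.6 CPM without and 67.2, 59.8 and 63.2 CPM with TGF-β1. Here the stimulated Smad7-KO libraries were the highest, and all 4 groups were apart. The responses were 1.47 and 2.56, with a difference of 1.10 (SE 0.15, interval 0.78 to 1.41, adjusted p = 0.0439, edgeR's quasi-likelihood test), and the linear rise was 25.8 ± 1.01 CPM with and 52.6 ± 2.21 CPM without Smad7.

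The estimates for these 3 genes moved little between processing choices, but the calls did not hold in most. Over 22 alternatives the difference was 1.19 to 1.69 for Mcam, 1.03 to 1.31 for F11r and 0.87 to 1.22 for Gcnt2, and it passed in 10, 9 and 7 of them, including 3, 2 and 2 of the 12 that left out 1 library. Leaving out any 1 of the 6 Smad7-KO libraries left 0 genes past the threshold in edgeR, with 308 to 360 at an unadjusted p under 0.05. The same count of 0 came without unstimulated control library 1 or TGF-β1 control library 2 or 3 (319 to 414 unadjusted), and Mcam alone passed without TGF-β1 control library 1, whereas DESeq2 on all libraries called 16 genes, 15 of them above 0. With limma voom and quality weights 314 genes were called and 110 of them lay above 0, so the direction of the calls turned with that choice.

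**Figure D2:**
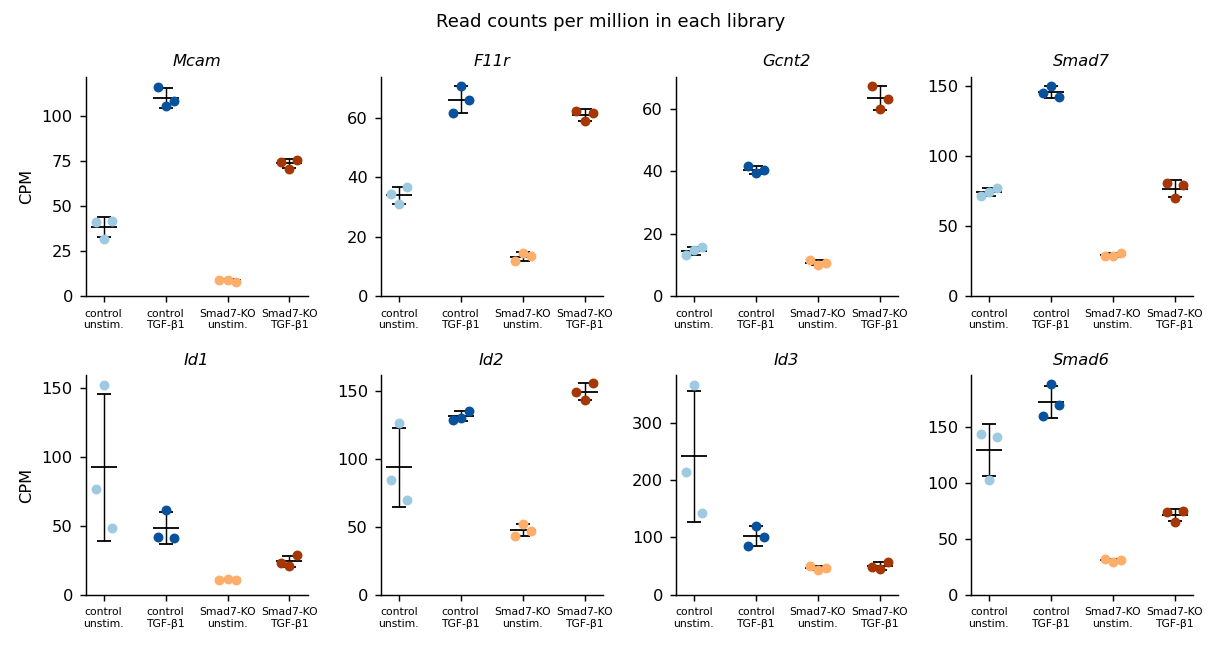
CPM (y axis, linear from 0) of 8 genes in the 12 libraries, by group (x axis). Points are libraries, and black bars the mean ± SD of 3. Mcam and Smad6 are lower in unstimulated Smad7-KO than in unstimulated control libraries, and Id1 and Id3 vary widely among the 3 unstimulated control libraries.

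The targeted gene responded in both cell groups. Smad7 counts, which sum all exons and do not show the deleted part by itself, were 71.4, 74.6 and 77.2 CPM in unstimulated control and 145, 150 and 142 CPM in TGF-β1 control libraries. In Smad7-KO cells they were 28.6, 28.4 and 31.1 CPM without and 80.8, 70.0 and 79.5 CPM with TGF-β1. Smad7 transcript was thus lower in Smad7-KO cells in both conditions, with no overlap at matched stimulation. Its mean was at 39.5% of control without and 52.7% with TGF-β1. The study documented the loss by qPCR and Western blotting, and how complete the deletion was in these libraries was not tested. The response was 0.97 in control cells and 1.39 without Smad7, and the difference was 0.42 (interval 0.13 to 0.70, adjusted p = 0.98, edgeR's quasi-likelihood test). The linear rise was 71.3 ± 2.98 and 47.4 ± 3.51 CPM.

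Among well-read genes with an unadjusted p under 0.05 for the difference, 117 responded more, 33 less and 104 oppositely without Smad7, 254 in all, of which 3 passed after adjustment. Of the 69 that rose more, 61 started from a lower unstimulated mean in Smad7-KO than in control cells, and 53 had a larger linear rise there. Over all 2070 tested genes with a larger rise in fold, 1271 started lower and 1757 had a larger linear rise. The unstimulated levels enter the fold changes, so these counts are descriptions.

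After Mcam, F11r and Gcnt2, the genes that responded more with the smallest p were Adamtsl2, Fam101b, Cd200, Megf6 and Pwwp2b, none past the adjusted threshold. Adamtsl2, a secreted microfibril-associated protein, had responses of 2.21 and 3.20, and Fam101b, an actin-organizing filamin partner, of 2.11 and 2.96. Both had a smaller linear rise without Smad7, 69.9 ± 3.79 against 90.3 ± 2.27 CPM for Adamtsl2 and 122 ± 6.23 against 160 ± 6.71 CPM for Fam101b. Megf6 had the largest rise in Smad7-KO cells among called genes at this level of reads, 5.29 on the log2 scale, but its unstimulated Smad7-KO level rested on 2, 1 and 5 reads. Pwwp2b, a chromatin protein, was at 27.4, 27.0 and 21.2 CPM in unstimulated control, 28.9, 33.2 and 31.4 CPM in stimulated control, 25.9, 27.4 and 29.9 CPM in unstimulated Smad7-KO and, with TGF-β1, 61.1, 59.2 and 63.8 CPM in Smad7-KO libraries. The stimulated Smad7-KO libraries stood above all others while the unstimulated groups overlapped. Its difference of 0.84 (interval 0.48 to 1.20) had an adjusted p of 0.507 in edgeR's quasi-likelihood test.

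A smaller response without Smad7 was estimated for Tspan2, Slc45a3, Stx1a, Mafk, Vdr, Chst15, Pvr and Ighm, with adjusted p values of the difference from 0.803 to 0.98 in edgeR's quasi-likelihood test. Tspan2, a tetraspanin, was at 9.55, 9.83 and 12.3 CPM in unstimulated control and 24.5, 26.6 and 19.4 CPM in TGF-β1 control libraries. The Smad7-KO libraries were at 5.95, 5.88 and 5.16 CPM without and 5.82, 4.71 and 6.79 CPM with TGF-β1. The control groups were apart and the Smad7-KO groups overlapped, with responses of 1.15 and 0.03 and a difference of -1.12 (interval -1.66 to -0.59). Mafk, a small Maf transcription factor, had responses of 0.70 and 0.24, and Stx1a, a membrane-fusion SNARE, of 1.33 and 0.37. Vdr, the vitamin D receptor, had responses of 0.87 and 0.07, from an unstimulated mean in Smad7-KO cells at 172% of that in control. Ighm, the immunoglobulin mu chain, fell in both, by 2.24 and 1.58 on the log2 scale.

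Opposite responses were led by Adam33, a metalloprotease. It was at 9.59, 13.1 and 12.9 CPM in unstimulated control and 7.68, 7.65 and 8.11 CPM in TGF-β1 control libraries. Smad7-KO libraries held it at 5.05, 5.24 and 4.29 CPM without and 7.22, 8.05 and 8.07 CPM with TGF-β1. The stimulated groups overlapped, while the unstimulated groups lay on opposite sides of them. Adam33 fell in control cells (-0.60, adjusted p = 0.0243) and rose in Smad7-KO cells (0.68, adjusted p = 0.0127) by edgeR's quasi-likelihood test, but the difference of 1.28 (interval 0.82 to 1.74) had an adjusted p of 0.204 in the same test. Soat2, which esterifies cholesterol, had responses of 0.12 and -1.01, Pgam5, a mitochondrial phosphatase, of 0.55 and -0.08, and Nek2, a centrosome kinase, of 0.48 and -0.51. Hist1h2bj had responses of 0.21 and -1.35, with reads that near-identical histone genes could share.

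**Figure D3:**
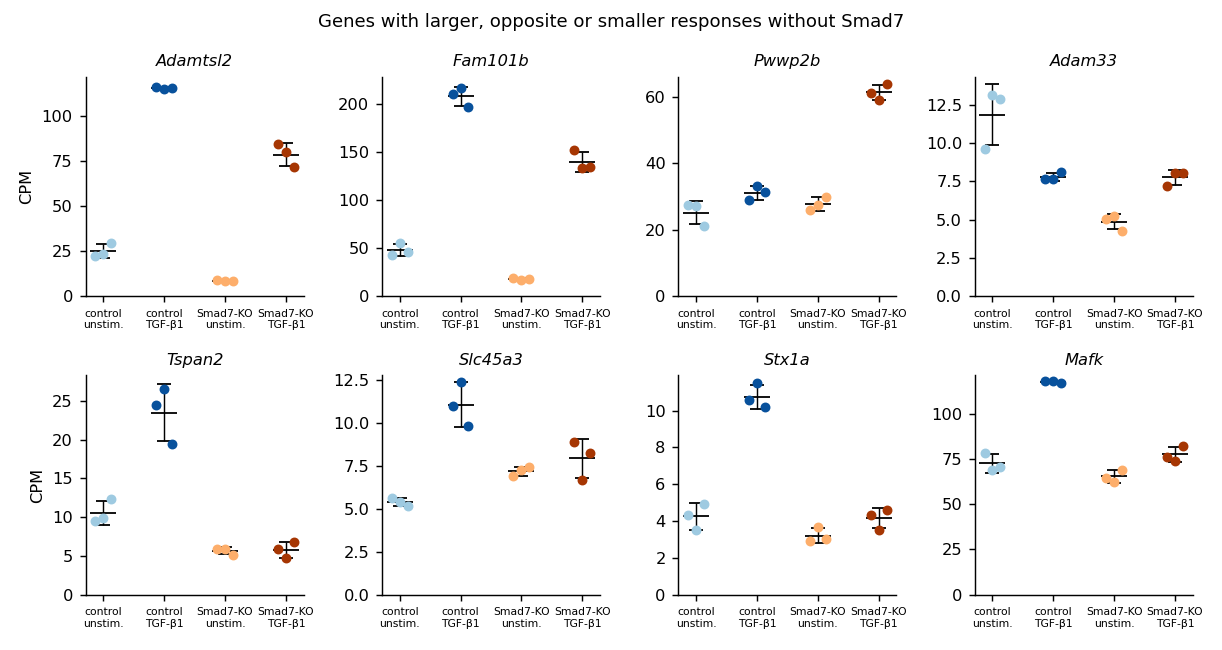
CPM (y axis, linear from 0) of 8 genes in the 12 libraries by group (x axis), with points for libraries and black bars for the mean ± SD of 3. Pwwp2b is highest in TGF-β1 Smad7-KO libraries, Adam33 moves in opposite directions, and Tspan2 has responses of 1.15 in control and 0.03 in Smad7-KO cells.

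Id1 and Id3 had the largest estimated differences among the 40 tested TGF-β1 targets. Id1 was at 76.6, 152 and 48.6 CPM in unstimulated control and 41.8, 61.5 and 41.3 CPM in TGF-β1 control libraries. The Smad7-KO levels were 10.9, 11.5 and 10.7 CPM without and 23.2, 21.1 and 28.8 CPM with TGF-β1. Control groups overlapped and Smad7-KO groups did not. The responses were -0.94 and 1.14, and the difference of 2.08 had an interval of 1.05 to 3.12 and an adjusted p of 0.803 in edgeR's quasi-likelihood test. Without unstimulated control library 2, where Id1 was highest, the difference was 1.53.

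Id3 fell in control cells (-1.24, adjusted p = 0.0142, edgeR's quasi-likelihood test) from 214, 367 and 143 CPM to 84.9, 120 and 101 CPM. In Smad7-KO cells it was at 49.5, 42.5 and 46.4 CPM without and 47.6, 43.9 and 57.0 CPM with TGF-β1, a response of 0.10. The difference was 1.34 (interval 0.50 to 2.19) and 0.92 without library 2. Id2 had responses of 0.49 and 1.66, with a linear rise of 37.7 ± 17.0 CPM with and 102 ± 4.29 CPM without Smad7. Smad6 had responses of 0.42 and 1.22, and its linear rise was 43.2 ± 15.8 and 40.5 ± 3.24 CPM from an unstimulated Smad7-KO level at 23.6% of control. Neither difference passed after adjustment with all 12 libraries in edgeR as fitted here. Over the 22 alternatives Id2 was called in 6, Id1 in 4, Smad6 in 3 and Id3 in 1. In edgeR, Smad6 passed without unstimulated control library 2, Id1 and Id2 passed without library 3 or with library 1 alone, and Id2 passed with length trends removed. DESeq2 called Id1, Id2 and Smad6.

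Gene lists of the pathway were described by counts and medians beside those of all tested genes, whose median difference was -0.01. Of all tested genes 5.04% rose and 3.33% fell in control cells, and 5.33% and 4.9% in Smad7-KO cells. Of 40 TGF-β1 target genes, 20 rose and 2 fell in control cells and 22 rose and 1 fell in Smad7-KO cells, with median responses of 0.62 and 1.05 and a median difference of 0.10. For 7 targets the difference had an unadjusted p under 0.05, all above 0, namely Id1, Smad6, Id3, Pmepa1, Rgs4, Snai1 and Bhlhe40, and 0 passed after adjustment. Over all tested genes the share at this p was 2.59%, with 182 of 392 above 0. Pmepa1, which sequesters receptor-activated Smads, had responses of 2.16 and 2.56, and Snai1, a transcription factor of mesenchymal transition, of 0.87 and 1.38. Ctgf, the connective tissue growth factor, was listed under a newer symbol and so was outside these counts. Its responses were 1.80 and 2.27 (difference 0.47, interval -0.14 to 1.09). Cyr61 was left out for the same reason, with responses of 0.58 and 0.88. Its difference of 0.30 had an unadjusted p of 0.0493 and an adjusted p of 0.98 in edgeR's quasi-likelihood test.

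The same shares of all tested genes apply here, 5.04% that rose and 3.33% that fell in control, and 5.33% and 4.9% in Smad7-KO cells. Of 20 negative feedback genes, 7 rose in control and 8 rose and 1 fell in Smad7-KO cells, with a median difference of 0.02. Of 21 ligands, receptors and signaling Smads, 3 rose in each. A difference with an unadjusted p under 0.05 was found for 0 of them, against 2.59% of all tested genes. Tgfb1 had responses of -0.19 and 0.05, and Smad4, the common partner Smad, of 0.03 and -0.14. Of 23 BMP ligands, antagonists and Id genes, 4 rose and 4 fell in control and 5 rose and 2 fell in Smad7-KO cells, with a median difference of -0.02.

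Matrix genes are set beside all tested genes, of which 5.04% rose in control and 5.33% in Smad7-KO cells. Of 36 structural matrix genes, 3 rose in control and 3 in Smad7-KO cells, with median responses of 0.18 and -0.02. The difference was above 0 for 3 of the 36, against 48.9% of all tested genes, with a median of -0.19. One of these was Col8a2, a short-chain collagen, with responses of 1.91 and 3.35 and a difference of 1.44 (interval 0.48 to 2.40). Of 25 matricellular and proteoglycan genes 4 rose in each cell group. Listed members filed under older symbols were outside this count. Of those, Cyr61, Ctgf and Wisp1 rose in both cell groups, and Nov and Wisp2 passed in neither. Of 38 proteases, inhibitors and crosslinking enzymes 9 rose in each, while 3 fell in control and 5 in Smad7-KO cells. Contractile and myofibroblast genes had 3 of 30 rise in each, and Itgb5, an integrin subunit that takes part in TGF-β activation, had responses of 0.93 and 1.24.

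Other lists gave no difference past the threshold except for the 3 genes above. Their counts stand beside 5.04% of all tested genes that rose and 3.33% that fell in control cells, and 5.33% and 4.9% in Smad7-KO cells. Of 31 junction and adhesion genes, 6 rose and 1 fell in control and 7 rose and 2 fell in Smad7-KO cells. Outside these counts, under older symbols, Pvrl1 and Pvrl3 rose in both cell groups and Pvrl2 passed as lower in control cells only. Alcam, an adhesion molecule, fell by 0.61 and 1.24 on the log2 scale. Of 19 glycosyltransferases, 4 rose and 1 fell in control and 6 rose and 3 fell in Smad7-KO cells. Transcription factors of mesenchymal transition and cardiac fibroblasts, 38 in all, had 10 rise and 6 fall in control and 7 rise and 8 fall in Smad7-KO cells. Of 32 immediate early and MAPK feedback genes, 4 rose and 1 fell in control and 5 rose and 3 fell in Smad7-KO cells, and Egr1 had responses of 0.35 and 1.12. Of 14 ErbB receptors and ligands, 3 rose and 1 fell in control and 4 rose and 1 fell in Smad7-KO cells. Cytokines and chemokines, 38 in all, had 8 rise and 5 fall in control and 10 rise and 8 fall in Smad7-KO cells, and cell cycle genes 4 of 28 and 3 of 28 rise. Of 29 interferon-stimulated genes 1 fell in each, with median responses of -0.31 and -0.05 and a median difference of 0.29.

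**Figure D4:**
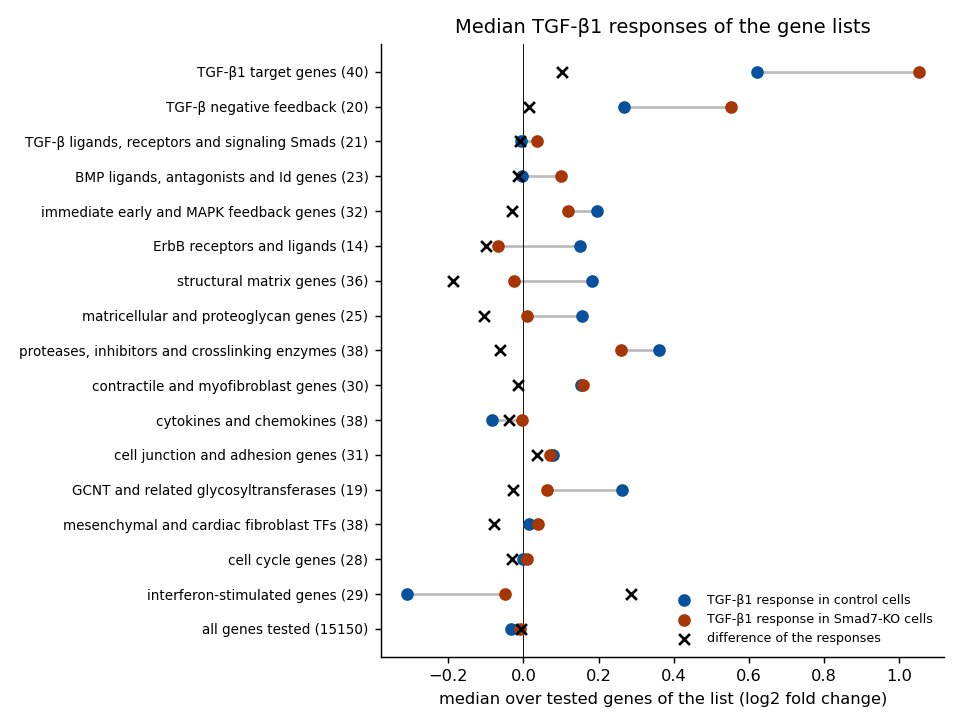
Median log2 TGF-β1 response (x axis) of the tested genes of each list (y axis, number tested in parentheses) in control cells (blue) and Smad7-KO cells (brown), with the median difference of responses as a cross. TGF-β1 targets have medians of 0.62 and 1.05, and structural matrix genes a median difference of -0.19.

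The difference moved with gene length across all genes. Its median was 0.19 in the 5058 shortest genes, -0.01 in the 5042 of middle length and -0.12 in the 5050 longest. Control responses had medians of -0.21, -0.01 and 0.08 in these classes, whereas Smad7-KO responses had medians of 0.01, 0.00 and -0.03. Without unstimulated control library 2, the median difference was -0.00, 0.01 and 0.03, and without library 3 it was 0.32, -0.03 and -0.32. The part of this trend in the matrix and interferon lists was not tested.

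**Figure D5:**
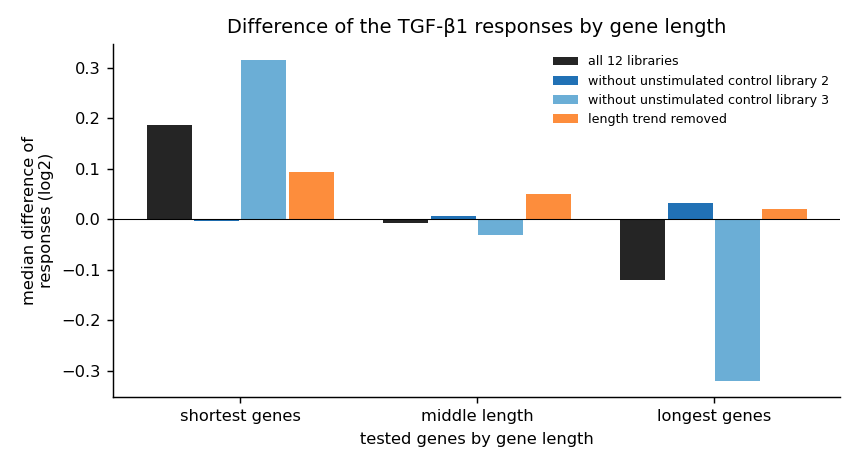
Median difference of the TGF-β1 responses (y axis, log2) in tested genes by class of gene length (x axis, the shortest, middle and longest of 3 near-equal classes). Bars start at 0 and stand for fits on all 12 libraries, without unstimulated control library 2 or 3, and with each library's length trend removed. The slope with length is absent without library 2 and steeper without library 3.

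For the difference, 2.59% of all tested genes had an unadjusted p under 0.05. Endothelial markers, whose sum was lower in Smad7-KO libraries in both conditions, included 2 such genes. Of these, Myct1 had a response of 0.45 in control and 2.12 in Smad7-KO cells, a difference of 1.66 (interval 0.87 to 2.46, adjusted p = 0.803, edgeR's quasi-likelihood test), on 7, 4 and 5 reads in unstimulated Smad7-KO libraries. Over the 18 tested endothelial markers, 12 had a difference above 0, against 48.9% of all tested genes, with a median of 0.11. The difference of Pecam1 was 0.11 with an interval of -0.35 to 0.57. The markers did not move together between unstimulated control and Smad7-KO cells. The median level of Emcn was 152 and 4.42 CPM and that of Pecam1 52.6 and 2.60 CPM, whereas Vwf was at 15.1 and 31.5 CPM and Tek at 9.82 and 9.54 CPM. Mcam is known from endothelium and mural cells, and the part of endothelial RNA in its difference was not tested.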

How the data were processed

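For each of 12 libraries the authors deposited raw counts of reads on every gene and FPKM values, which equalled the deposited counts divided by gene length and library total. The submitters' processing notes name CASAVA, TopHat2 2.0, Cufflinks 2.1.1 and HTSeq 0.6.1 with the mm10 and GRCm38.p6 builds. Whether counting used strand is not given in the sources used here, so reads of antisense and overlapping genes are uncertain. Gene lengths deposited with the counts were used only to follow length trends. Columns that match no sample numbered 0.

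Counts were fitted in R 4.3.3 with edgeR 4.0.16 (filterByExpr with a minimum count of 10, TMM scaling, robust quasi-likelihood), with 1 coefficient per group over all 12 libraries. Benjamini-Hochberg adjusted p values of 0.05 or less were called. SEs derive from the F statistic and intervals are pointwise. Against 3 libraries, 3 libraries cannot give an exact two-sided p under 0.1. Alternatives were DESeq2 1.42.0, its size factors, no filter, limma 3.58.1 with quality weights or on log2(FPKM + 1) and log2(FPKM + 0.1) (FPKM of 1 or higher in 3 libraries), removal of length trends by loess (span 0.3), a replicate block and leaving out each library. Unstimulated control library 1 alone, and linear CPM changes, were added after the data were seen. Replicates differed by more than sampling noise, with chi-square values per gene from 3.16 to 257.

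The lists and named genes were chosen with earlier results of these data known. Named were Smad7, genes whose difference was called, the 8 with the smallest p responding more, less or oppositely (average log2 CPM 1 or higher, unadjusted p under 0.05), genes called in opposite directions (up to 10), the 5 strongest called responses each way in either cell group, and the 3 members of each list with the smallest p. Tgfbi, Hbegf, Skil, Il11, Ctgf, Rgs4, Bhlhe40, Pecam1 and Myct1 were named after their values were seen. So were Cyr61, Wisp1, Wisp2, Nov, Pvrl1, Pvrl2, Pvrl3, Lyz2, Lyve1, Col3a1 and Lum. Symbols were taken from the deposited table, where 122 genes share a symbol with another. Some genes are not reported here.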

Additional observations from a re-analysis of the deposited data

Results flagged for a closer look

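In 3 genes the TGF-β1 response of Smad7-KO cells differed from that of control cells by the test of the difference itself (edgeR's quasi-likelihood test). The difference was 1.56 on the log2 scale for Mcam, 1.23 for F11r and 1.10 for Gcnt2, each higher in Smad7-KO cells. No sample was tested for standing apart in a single gene, since groups held 3 libraries.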

How the results depend on the processing

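The count of genes whose difference passed was 3 in the main analysis and 3 with DESeq2's size factors, 2 with no filter, 16 with DESeq2, 8 with length trends removed, 0 with limma on log2(FPKM + 1) or log2(FPKM + 0.1) (323 and 282 at an unadjusted p under 0.05), 314 with limma voom and quality weights (110 above 0), and 4 with unstimulated control library 1 alone. With quality weights the share of calls above 0 therefore turned from 3 of 3 to 110 of 314. Deviations of same-numbered libraries from their group means correlated from -0.36 to 0.52. These deviations carry the length trends of single libraries, so they cannot show whether replicate numbers paired the libraries. With the replicate block 0 genes passed (340 at an unadjusted p under 0.05), and with the block and length trends removed 7 did. Under the block, Mcam had an adjusted p of 0.0544, F11r of 0.171 and Gcnt2 of 0.197 (edgeR).

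Responders in control cells numbered 2204 with length trends removed, 5906 with quality weights and 1982 with the block and length trends removed. Smad7-KO responders numbered 2468 and 4321 under the first 2 of these, and 2987 with library 1 alone. Genes called in both in the same direction numbered 1660, 2928 and 1538 under the same 3 settings. Genes called in opposite directions numbered 2 with DESeq2, 2 with length trends removed, 46 with quality weights, 2 with the block and length trends removed, and 0 with no filter or library 1 alone. Pearson's r was 0.151 with no filter and 0.418 with library 1 alone, and Spearman's rho 0.256 with no filter. Responders of either cell group bounded within 2-fold, 1294 in the main analysis, numbered 2426 with length trends removed, 5631 with quality weights, 2178 with the block and length trends removed, and 2412 with library 1 alone. The cause of these changes was not tested.

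Leaving out 1 library gave 0 to 6 genes with a called difference, 825 to 3449 control and 985 to 2535 Smad7-KO responders, 715 to 1453 genes in both in the same and 0 to 2 in opposite directions, Pearson's r of 0.483 to 0.658, Spearman's rho of 0.365 to 0.644, median responses of 0.316 to 1.00 (Smad7-KO cells) and 0.541 to 0.857 (control cells), and 892 to 2307 bounded responders. The highest counts of control responders and of called differences came without unstimulated control library 3 (3449 and 6), and that of Smad7-KO responders without library 2 (2535). Without unstimulated control library 2, genes called in both in the same direction numbered 1453 and bounded responders 2174.

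The differences that changed sign, those of Clec4a1, Spic, AI504432, Rapgef4, Htr2b and Olfm2, were from -0.14 to 0.49 in the main analysis and not called there. With log2(FPKM + 1) Clec4a1 was at -0.0152, Rapgef4 at -0.212 and Htr2b at 0.128, with log2(FPKM + 0.1) AI504432 was at -0.0570 and Rapgef4 at -0.221, and Rapgef4 was at -0.419 with quality weights and -0.406 with library 1 alone. Leaving out 1 library gave -0.210 to 0.555 for Spic, -0.324 to 0.392 for AI504432, -0.113 to 0.197 for Rapgef4, -0.0909 to 0.831 for Olfm2 and -0.736 to 0.140 for Htr2b.

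Groups held 3 libraries, with a wide spread in unstimulated control cells. The median pointwise interval of the difference was ± 0.63 on the log2 scale. Such intervals are not adjusted over genes, so for many genes smaller differences could not be called, nor could some larger ones. Differences of 0.75 for Cd200, 1.28 for Adam33 and 2.08 for Id1 had adjusted p values of 0.41, 0.204 and 0.803 (edgeR's quasi-likelihood test). The 3 called genes had differences of 1.10 to 1.56.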
